A study of Mus musculus with 12 samples.

Results

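The genes described are 7 of the 20775 genes listed in each of 2 RPKM tables: Ttn (titin), Mybpc2 and Mybpc3 (myosin-binding proteins C), Myom1, Myom2 and Myom3 (myomesins) and Obsl1 (obscurin-like 1). They were chosen by name, as giant sarcomere, thick filament and M-band protein genes, and all 7 are present in both tables. RNA-seq was performed on E10.5 hearts and on adult cardiomyocytes collected 4 weeks after tamoxifen, with 3 libraries in each of 4 groups. MED30 is a subunit of Mediator, the complex that relays signals from transcription factors to RNA polymerase II, and the comparisons ask what its loss from cardiomyocytes does to the transcriptome. At E10.5, Med30 cKO hearts carried homozygous floxed Med30 and Tnnt-Cre, whose troponin T promoter is active in developing cardiomyocytes, and Ctrl littermates were floxed but Cre-negative. At 4 weeks, Med30 icKO mice carried homozygous floxed Med30 and αMHC-MerCreMer, a tamoxifen-activated Cre expressed in cardiomyocytes. Ctrl mice were floxed and Cre-negative, and both groups received tamoxifen. The labels call both Ctrl groups wild type, give the strain as C57BL/6 and the age of the adult mice as 3 months, and name the source of every sample as heart. The floxed line came from 1 targeted ES cell clone. Cre is present only in the knockout groups, so in these libraries its own effect and that of Med30 loss cannot be told apart. In αMHC-MerCreMer mice lacking a floxed allele, the paper reports neither deaths nor impaired cardiac function after tamoxifen. None of these libraries comes from such mice. Whether libraries of a group came from different animals is not stated, so the p-values measure the spread between these libraries.

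Titin is a giant protein that runs from the Z-disc to the M-band of the sarcomere, acts as a molecular spring and anchors the thick filament. Myosin-binding protein C sits on the thick filament and modulates the myosin heads, and Mybpc3 encodes the cardiac form while Mybpc2 encodes the form of fast skeletal muscle. Myomesins cross-link thick filaments at the M-band, where obscurin-like 1 binds titin and myomesin. Myom2 encodes M-protein, the myomesin typical of mature cardiac and fast skeletal sarcomeres, and Myom3 is a skeletal muscle form. MYBPC3 and TTN are well-known human cardiomyopathy genes.

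In annotation of GRCm38, the build of the files (mm10), Ttn lies on the minus strand of chromosome 2 from 76703980 to 76982547, and its longest RefSeq transcript has 312 exons and 100404 bases. Mybpc3 lies on the plus strand of the same chromosome from 91118144 to 91136516. Mybpc2 lies on chromosome 7 from 44501699 to 44524656 on the minus strand, Myom1 on chromosome 17 from 71002633 to 71126856 on the plus strand, and Myom2 on chromosome 8 from 15057653 to 15133541 on the plus strand. Myom3 covers 135759715 to 135815564 of chromosome 4 on the plus strand, and Obsl1 covers 75479310 to 75506452 of chromosome 1 on the minus strand. The Obsl1 model overlaps Tmem198 on the opposite strand, whose RPKM was at most 1.26 in any library. The start of the Myom1 model, from 71002633 to 71002878, overlaps Myl12a on the opposite strand, whose RPKM was 61.5 to 78.2 in Ctrl and 87.8 to 102 in cKO at E10.5, and 179 to 208 in Ctrl and 256 to 358 in icKO at 4 weeks. The RefSeq start of Myom1 lies downstream of this overlap, past 71019556, and the annotation behind the RPKM is not given. The part of Myl12a reads in the Myom1 values was not tested. The 3′ end of Mybpc2 adjoins Fam71e1, whose RPKM at 4 weeks was 0.202 to 0.604 in Ctrl and 1.35 to 2.57 in icKO. RPKM is the number of reads on a gene relative to its length and to the mapped reads of the library, a level per length, so that the genes can be compared with one another within a library.

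RefSeq promoter sequence was at hand for 6 of the 7 genes, all but Myom2. The 250 bases before the start site of Ttn and Mybpc3, the most abundant transcripts of the group, each held 1 match to the MEF2 site. This site is the binding motif of a family of muscle transcription factors. The same window of Mybpc2 held no MEF2 match. These 3 promoters are given 5′ to 3′ from GRCm38.p6, with the MEF2 match in capitals.
Ttn, chr2:76982548-76982797, minus strand: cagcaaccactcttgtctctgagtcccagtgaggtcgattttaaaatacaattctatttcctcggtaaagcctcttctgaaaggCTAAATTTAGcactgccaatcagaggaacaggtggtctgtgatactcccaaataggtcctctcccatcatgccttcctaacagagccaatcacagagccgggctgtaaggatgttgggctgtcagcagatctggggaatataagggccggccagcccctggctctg
Mybpc3, chr2:91117894-91118143, plus strand: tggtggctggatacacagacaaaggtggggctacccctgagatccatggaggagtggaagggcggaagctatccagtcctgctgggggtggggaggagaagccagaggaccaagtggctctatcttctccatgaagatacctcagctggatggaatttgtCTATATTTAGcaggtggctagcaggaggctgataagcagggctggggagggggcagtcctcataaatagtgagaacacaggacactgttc
Mybpc2, chr7:44524670-44524919, minus strand: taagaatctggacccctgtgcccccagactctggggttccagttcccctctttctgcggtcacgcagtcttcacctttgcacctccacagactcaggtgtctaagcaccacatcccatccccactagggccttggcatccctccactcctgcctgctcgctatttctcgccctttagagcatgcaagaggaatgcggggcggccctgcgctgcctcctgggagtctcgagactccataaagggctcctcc
The MEF2 match began 166 bases before the start of Ttn and 90 bases before that of Mybpc3, and Myom3 held another at 35 bases. On both strands, 2.92% of all 32851 promoters of this length held a MEF2 match. A match to the SRF site (the CArG box), found in 1.47% of all promoters, was present before the RefSeq start of Myom1, at 99 bases. TATAAA, which can overlap the MEF2 site, was found in 12.4% of promoters and in none of the 6. Obsl1 held no match to any of these motifs. A match describes the letters in this window, and binding was not measured.

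Med30, the targeted gene, had RPKM of 10.6, 13.3 and 11.3 in E10.5 Ctrl and 1.38, 2.02 and 1.0 in cKO, and its mean fell by 87.5%. At 4 weeks its RPKM was 7.66, 7.45 and 7.66 in Ctrl and 3.81, 3.16 and 1.82 in icKO, and its mean fell by 61.4%. Depth, estimated from the spacing of low RPKM values, was 11.97 to 20.01 M reads per library. At this depth 3 reads of Mybpc2 corresponded to 0.0415 to 0.0694 RPKM. The summed RPKM of the 8 cardiomyocyte markers was 4516 to 5876 in Ctrl and 3412 to 4247 in cKO at E10.5, and 13653 to 14765 in Ctrl and 6233 to 7508 in icKO at 4 weeks. At 4 weeks 5 of the 8 were lower in every icKO library, whereas Actn2 (mean 626 in Ctrl and 1139 in icKO) and Nkx2-5 (23.5 and 39.1) were higher in every one, and Myl7, an atrial light chain, was below 1 RPKM except in icKO replicate 1 (7.30). Erythroid markers varied between E10.5 libraries, with sums of 229 to 764 RPKM in Ctrl and 362 to 2155 in cKO. The 7 fibroblast markers summed to 4.33 to 7.49 RPKM in Ctrl and 52.2 to 73.5 in icKO at 4 weeks, with 7 of 7 higher in every icKO library. Macrophage, endothelial and mural cell markers were also higher in icKO, as sums of 6.69 to 9.44 against 2.83 to 4.50, 24.1 to 34.0 against 10.7 to 21.5 and 18.9 to 37.6 against 5.78 to 15.5 RPKM. The part of these other cells in the results at 4 weeks was not tested. In these bulk samples, fewer cardiomyocytes and less RNA per cardiomyocyte cannot be told apart.

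**Figure D1:**
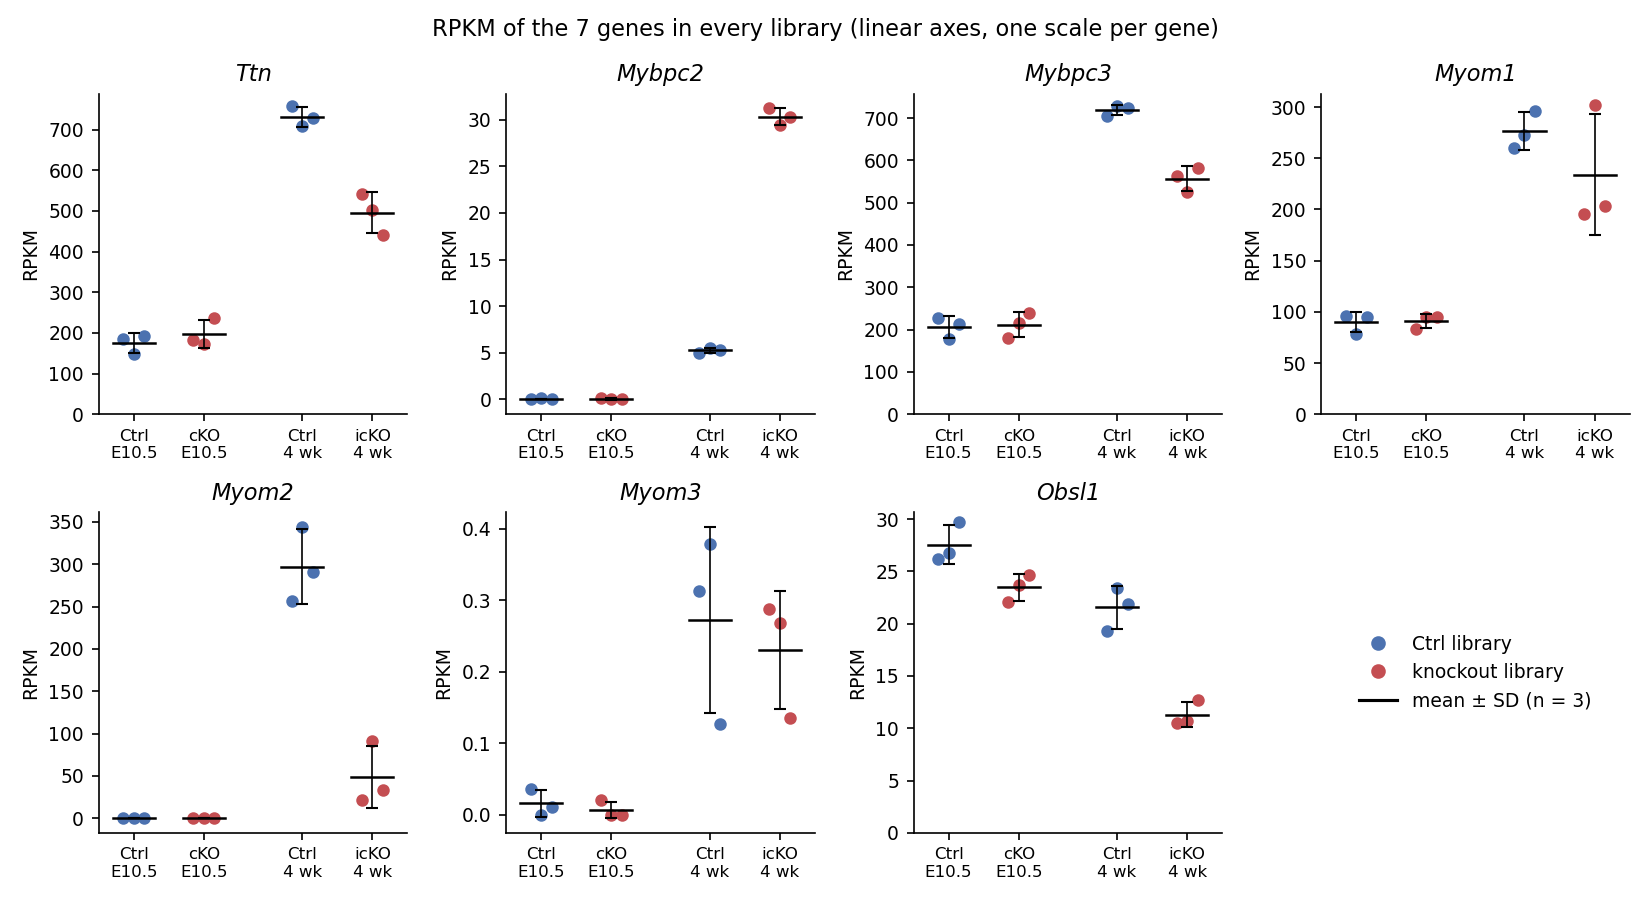
RPKM of each gene (linear y axes, a scale per gene) in E10.5 Ctrl, E10.5 cKO, 4 weeks Ctrl and 4 weeks icKO, with a point per library and the mean ± SD of 3 libraries. At 4 weeks Myom2 lies between 256 and 345 in Ctrl and between 21.88 and 91.0 in icKO, whereas Mybpc2 lies near 5 in Ctrl and near 30 in icKO.

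In control hearts at E10.5, Mybpc3 and Ttn were the most abundant of the 7 transcripts, with 206 ± 25.0 and 175 ± 24.3 RPKM (SD, n = 3). The ranges of these 2 genes overlapped. Myom1 followed with 89.8 ± 9.76 and Obsl1 with 27.6 ± 1.87 RPKM, each below the gene before it in every library. Myom2, Mybpc2 and Myom3 were at 0.408 RPKM or less in every E10.5 library, and their ranges overlapped. In control adult cardiomyocytes, Ttn (732 ± 24.4) and Mybpc3 (719 ± 11.8) were again the most abundant, with overlapping ranges. Myom2 (297 ± 44.4) and Myom1 (277 ± 18.3) came next and also overlapped. Obsl1 had 21.6 ± 2.07, Mybpc2 5.29 ± 0.263 and Myom3 0.273 ± 0.130 RPKM. Levels are set side by side here across tables that were made separately, and stage, material and Cre line cannot be told apart between them.

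At E10.5 none of the 7 genes was called changed in Med30 cKO hearts. A gene was tested where its mean RPKM over the 6 libraries of the table exceeded 1, and a call required both a log2 fold change above 1 or below −1 and an adjusted p under 0.05 (limma on log2(RPKM + 0.1), Benjamini-Hochberg over all genes tested). Of the 4 genes tested, 0 were lower and 0 higher. None reached an adjusted p under 0.05, as 3.45% of all genes did below 0 and 0.864% above, and 0 had an unadjusted p under 0.05 (limma), against 19.2% below 0 and 4.39% above. Over all 10885 genes tested, 0.542% were called lower and 0.239% higher, or 0.377% and 0.322% after median-ratio scaling, which equalizes the median gene between libraries and also called 0 of the 4.

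Ttn had RPKM of 185, 148 and 193 in Ctrl and 182, 174 and 238 in cKO. The groups overlapped, and the log2 fold change was 0.17 with a 95% interval of −0.22 to 0.55 (limma adjusted p = 0.585). The Ttn value was 0.050 without Ctrl replicate 2 and 0.030 without cKO replicate 3, and after quantile normalization it was 0.44 (limma adjusted p = 0.0448), still short of the limit of 1. Mybpc3 had 227, 178 and 213 in Ctrl and 181, 216 and 238 in cKO, which also overlapped. Its log2 fold change was 0.03, with an interval of −0.33 to 0.40 (limma adjusted p = 0.925). Myom1, the core M-band cross-linker, had 96.3, 78.6 and 94.5 in Ctrl and 83.4, 94.9 and 95.1 in cKO. The log2 fold change of Myom1 was 0.03, with an interval of −0.27 to 0.32 (limma adjusted p = 0.932). For these 3 genes the intervals exclude a 2-fold change in either direction, and the sign of the Mybpc3 and Myom1 values turned with the library left out.

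Obsl1 had RPKM of 26.2, 26.8 and 29.7 in Ctrl and 22.1, 23.7 and 24.7 in cKO. All cKO libraries lay below all Ctrl libraries, as for 22.6% of the genes tested, whereas 6.50% lay above. The log2 fold change was −0.23 (SE 0.107; 95% interval −0.47 to 0.01; limma adjusted p = 0.227), against a median of −0.13 over all genes tested. Myom2 had RPKM of 0.050, 0.408 and 0.088 in Ctrl and 0.162, 0.161 and 0.103 in cKO, that is about 5 to 33 reads. Mybpc2 had 0.041, 0.105 and 0 in Ctrl and 0.142, 0.016 and 0 in cKO, or 0 to 9 reads per library. Myom3 had 0.036, 0 and 0.011 in Ctrl and 0.020, 0 and 0 in cKO. These 3 genes did not pass the filter at E10.5 and a difference was not detectable at this depth.

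At 4 weeks the group split in Med30 icKO cardiomyocytes: Myom2 fell by 83.6% in mean RPKM, Mybpc2 rose by 473%, Obsl1, Ttn and Mybpc3 fell by smaller amounts, and Myom1 did not pass the test. Of the 6 genes tested, 1 was called lower (Myom2) and 1 higher (Mybpc2), where 8.45% of all 9517 genes tested were lower and 28.0% were higher. At an adjusted p under 0.05 without the fold limit, 4 of the 6 were lower and 1 was higher, against 18.1% and 60.6% of all genes. All icKO libraries lay below all Ctrl libraries for 4 of the 6 and above for 1, against 18.9% and 62.0% of all genes. Over all genes tested the log2 fold change had a median of 0.57 at 4 weeks, and over the 6 genes a median of −0.47. After median-ratio scaling, which moved the median of all genes to 0.04, 3 of the 6 were called lower (Myom2, Obsl1 and Ttn) and 1 higher, against 15.5% and 11.6% of all genes. The paper's DESeq2 analysis of this stage, at the same fold and adjusted p limits, reported more genes lower than higher. In the fits here that order held after median-ratio scaling but not for the RPKM as deposited.

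**Figure D2:**
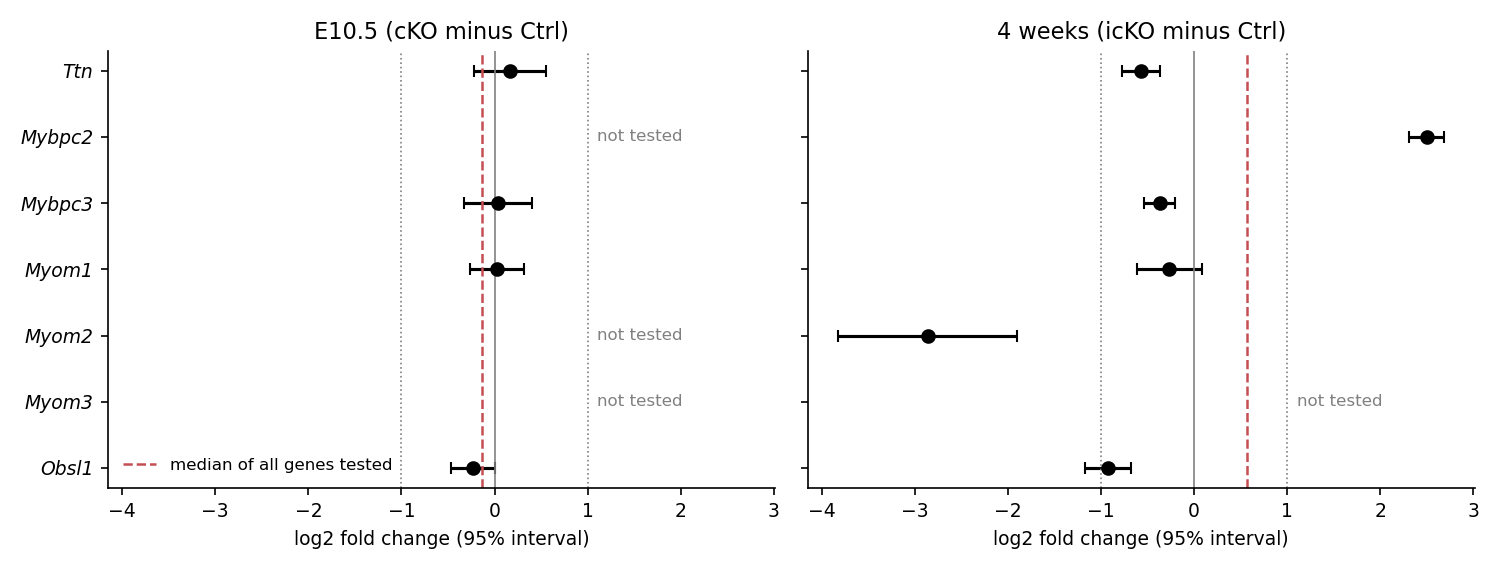
Log2 fold change (knockout minus Ctrl, x axis) of each gene (y axis) at E10.5 and at 4 weeks with 95% intervals from limma; the dashed line is the median of all genes tested, and dotted lines mark the limits of −1 and 1. At E10.5 every interval includes 0, and at 4 weeks Myom2 (−2.86) and Mybpc2 (2.498) lie beyond the limits.

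Myom2, which encodes M-protein, had RPKM of 256, 345 and 291 in Ctrl and 21.88, 91.0 and 33.3 in icKO at 4 weeks. The icKO libraries all lay far below Ctrl, and icKO replicate 2 was the highest of them. The log2 fold change was −2.86 (SE 0.424; 95% interval −3.83 to −1.90; limma adjusted p = 0.000223). Without icKO replicate 2 it was −3.45 (SE 0.185). Myom1 had RPKM of 260.4, 273 and 296 in Ctrl and 196, 302 and 204 in icKO. The same icKO replicate 2 lay above every Ctrl library, and the others lay below. For Myom1 the log2 fold change was −0.27 (SE 0.153; 95% interval −0.62 to 0.08; limma adjusted p = 0.136). Without icKO replicate 2 it was −0.47 (SE 0.0787), with a limma adjusted p of 0.000960. Myom3 had 0.313, 0.378 and 0.127 RPKM in Ctrl and 0.287, 0.268 and 0.135 in icKO, and did not pass the filter.

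Myom2 supplied 51.6% ± 3.58 of summed myomesin RPKM in Ctrl cardiomyocytes and 15.7% ± 6.72 in icKO (SD, n = 3), with ranges of 49.5% to 55.8% and 10.03% to 23.1%. The summed level went from 574 ± 51.8 to 283 ± 96.1 RPKM. The ratio of Myom2 to Myom1 within a library, which multiplying a library by any factor leaves unaltered, was 0.985, 1.26 and 0.982 in Ctrl and 0.112, 0.301 and 0.163 in icKO. All icKO ratios were lower, with a change of −2.59 on the log2 scale, and the exact two-sided permutation p was 0.1 (0.3 after adjustment over 6 ratios), the smallest that 3 libraries against 3 allow. In E10.5 hearts Myom1 made up 99.48% to 99.91% of the pool per library, and the Myom2 to Myom1 ratio was within 0.000519 to 0.00519 in Ctrl and 0.00108 to 0.00194 in cKO.

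**Figure D3:**
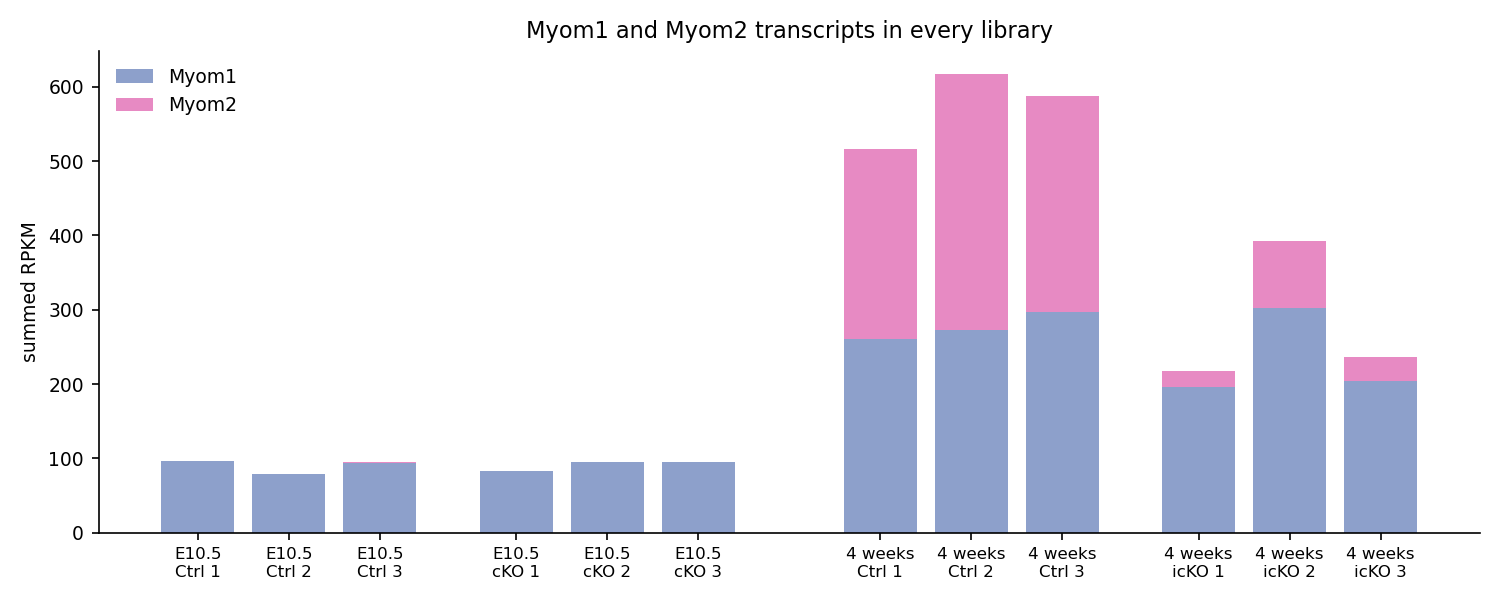
Stacked RPKM of Myom1 and Myom2 (y axis, linear, from 0) in each of the 12 libraries (x axis). Myom2 is not visible at E10.5, makes up about equal parts with Myom1 in Ctrl cardiomyocytes and 10.03% to 23.1% of the pool in icKO.

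Mybpc2 had RPKM of 5.03, 5.55 and 5.29 in Ctrl and 31.2, 29.4 and 30.3 in icKO. The groups were tight and far apart, and the log2 fold change was 2.498 (SE 0.0838; 95% interval 2.31 to 2.69; limma adjusted p = 1.26e-07). The estimated reads were 240 to 352 per Ctrl library and 1310 to 1906 per icKO library. Relative to the median of all genes the log2 change was 1.93, and after median-ratio scaling it was 1.96. Mybpc2 remained a small part of the myosin-binding protein C transcripts: its share of summed Mybpc1, Mybpc2 and Mybpc3 RPKM was 0.731% ± 0.0252 in Ctrl and 5.17% ± 0.195 in icKO. Of the 12 skeletal muscle markers, 11 were below 1 RPKM in every library at 4 weeks, the other being Tnnt3. The sum of all 12 was 0.272 to 0.455 in Ctrl and 6.58 to 9.44 in icKO, but the mean was higher in icKO for 3 and lower for 6. Myod1, Myog, Myf5 and Pax7, which define skeletal muscle precursors, were all below 1 RPKM, with Myog and Myf5 at 0 throughout.

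Mybpc3 had RPKM of 705, 727 and 723 in Ctrl and 564, 524 and 583 in icKO. All icKO libraries were lower, and mean RPKM fell by 22.5%, with a log2 value of −0.37 (SE 0.0726; limma adjusted p = 0.00128), short of the limit of 1. Ttn had RPKM of 758, 709.9 and 727 in Ctrl and 542, 502 and 441 in icKO. All icKO libraries were lower, and mean RPKM fell by 32.4%, with a log2 value of −0.57 (SE 0.0893; limma adjusted p = 0.000321). Counted by the longest transcript, Ttn took an estimated 7.35% ± 0.245 of all reads in Ctrl and 4.97% ± 0.506 in icKO. Obsl1 had RPKM of 19.3, 23.5 and 21.8 in Ctrl and 10.49, 10.7 and 12.7 in icKO. All icKO libraries were lower, and mean RPKM fell by 47.6%, with a log2 value of −0.93 (SE 0.110; limma adjusted p = 5.32e-05). It was called lower without Ctrl replicate 1 or without icKO replicate 3.

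The size of these falls depended on how the libraries were scaled. After median-ratio scaling the log2 fold change at 4 weeks was −1.11 for Ttn, −0.91 for Mybpc3, −0.81 for Myom1 and −1.46 for Obsl1, and all 4 had a limma adjusted p of 0.00169 or less. After quantile normalization it was −0.23 for Ttn (limma adjusted p = 0.0525), −0.02 for Mybpc3 (adjusted p = 0.803), −0.05 for Myom1 (adjusted p = 0.749) and −1.45 for Obsl1. Without the filter on low values the adjusted p of Mybpc3 was 0.0736. The directions of Myom2 and Mybpc2 and their calls held under all these scalings.

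**Figure D4:**
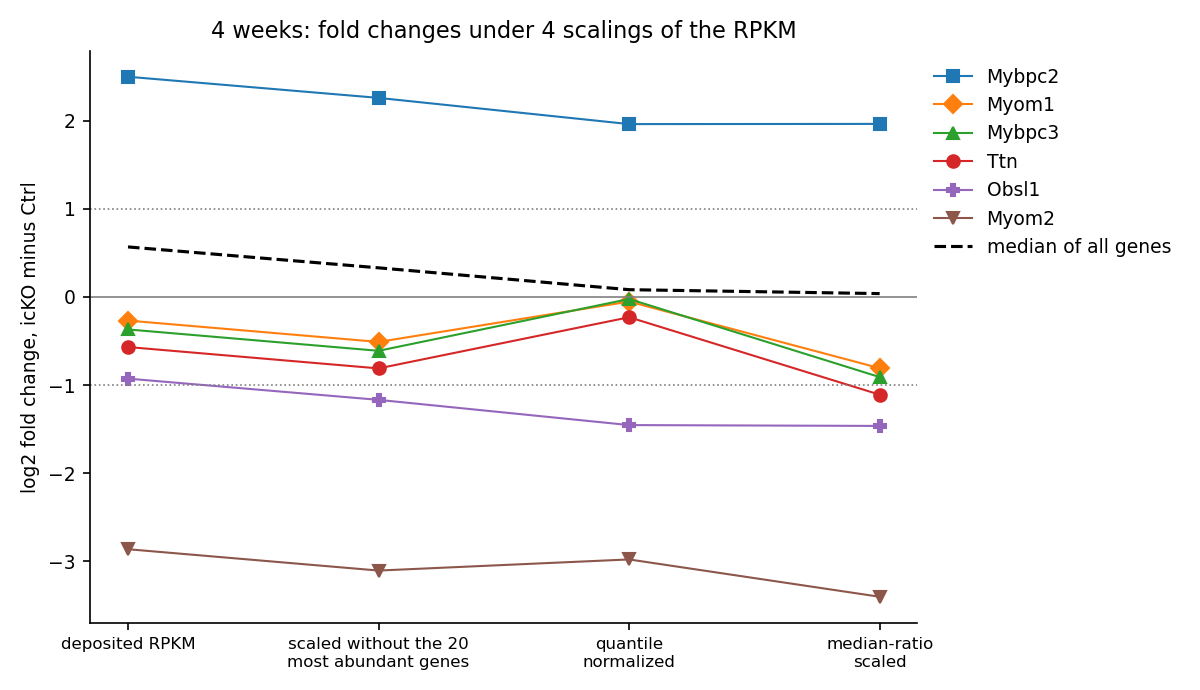
Log2 fold change at 4 weeks (icKO minus Ctrl, y axis) of the 6 genes tested under 4 scalings of the RPKM (x axis), with the median of all genes as a dashed line and the limits of −1 and 1 dotted. Mybpc2 stays above 1 and Myom2 below −1 under each, and Ttn ranges from −0.23 to −1.11.

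Ratios within a library were compared for the partners of the thick filament as well. The Mybpc3 to Ttn ratio was 0.930, 1.02 and 0.994 in Ctrl and 1.04, 1.05 and 1.32 in icKO. All icKO ratios were higher, by 0.20 on the log2 scale, with an exact two-sided permutation p of 0.1 (0.3 after adjustment). The difference of 0.20 rested in part on icKO replicate 3, without which it was 0.086. The Myom1 to Ttn ratio was 0.343, 0.385 and 0.408 in Ctrl and 0.362, 0.602 and 0.462 in icKO, which overlapped (exact permutation p = 0.3; adjusted 0.48). Its change of 0.30 was 0.11 without icKO replicate 2 and 0.48 without icKO replicate 1. At E10.5 both ratios overlapped between groups, and each had an exact permutation p of 0.4 (adjusted 0.48).

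The effect of the knockout was compared between stages in a fit of all 12 libraries, as the difference at 4 weeks minus that at E10.5. Ttn, Mybpc3, Myom1 and Obsl1 passed the filter at both stages. The effect differed for 2 of these 4 at an adjusted p under 0.05 (limma), where 68.1% of the 8909 genes that passed at both stages did so. The difference on the log2 scale was −0.74 (SE 0.210) for Ttn (adjusted p = 0.00780) and −0.70 (SE 0.148) for Obsl1 (adjusted p = 0.00119). For Mybpc3 it was −0.40 (95% interval −0.81 to 0.00; adjusted p = 0.0754) and for Myom1 −0.29 (interval −0.76 to 0.17; adjusted p = 0.249). Mybpc3 passed without E10.5 Ctrl replicate 1 (adjusted p = 0.0314) or cKO replicate 1 (adjusted p = 0.0361), and Myom1 passed without icKO replicate 2 (adjusted p = 0.0227). Myom2 and Mybpc2 were near 0 at E10.5, so that no knockout effect could be measured there and no difference between stages is given for them. The median difference over the 8909 genes was 0.69. Stage, material and Cre line cannot be told apart in this contrast.

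The wider thick filament and M-band was followed with 14 other genes. At 4 weeks 11 were tested and 7 were called lower and 1 higher, against 8.45% and 28.0% of all genes, with a median log2 fold change of −1.27, against 0.57 over all genes. Myh7b, a slow-type myosin heavy chain, had RPKM of 9.12, 11.3 and 14.1 in Ctrl and 0.571, 0.654 and 0.328 in icKO (log2 fold change −4.25). Myh6, the adult mouse cardiac myosin heavy chain, had 4522, 4389 and 4232 in Ctrl and 336, 446 and 538 in icKO (−3.34). Myh7, the fetal cardiac myosin heavy chain, had 19.5, 32.8 and 35.4 in Ctrl and 9.91, 7.44 and 3.61 in icKO (−2.12). Myl3, Speg, Ckm and Myl2 were also called lower, and Speg and Ckm encode a striated muscle protein kinase and the muscle creatine kinase that docks at the M-band. Myl4, the atrial essential light chain, was called higher, with 1.39, 1.63 and 1.08 in Ctrl and 16.3, 7.87 and 6.31 in icKO (log2 fold change 2.70). The M-band gene Lrrc39 was not called, with a value of −0.12, or −0.65 after median-ratio scaling (limma adjusted p = 0.000849). Without icKO replicate 2 the count called higher was 2. The count called lower was 5 after quantile normalization and 5 without the filter on low values. After median-ratio scaling 8 were called lower and 1 higher, against 15.5% and 11.6% of all genes.

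At E10.5 the same list had 12 genes tested, 2 called lower and 0 higher, against 0.542% and 0.239% of all genes, and a median of −0.49, against −0.13. These were Myh7, with RPKM of 609, 410.0 and 589 in Ctrl and 179, 160.6 and 242 in cKO (log2 fold change −1.47), and Myh7b, with 5.16, 7.01 and 7.50 in Ctrl and 2.44, 2.15 and 2.90 in cKO (−1.35). The count fell to 0 without Ctrl replicate 3 and to 1 without cKO replicate 1 or 2, and no filter on low values left 0. At an adjusted p under 0.05 (limma) without the fold limit, 4 of the 12 were lower and 0 higher, against 3.45% and 0.864% of all genes. Of the 12, 6 had an unadjusted p under 0.05 (limma), all with lower values in cKO, against 19.2% of all genes.

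Titin's partners and regulators comprised 18 genes. At 4 weeks 16 were tested, with 3 called lower and 1 called higher, against 8.45% and 28.0% of all genes, and a median of −0.16, against 0.57. At an adjusted p under 0.05 without the fold limit 5 were lower and 6 higher, against 18.1% and 60.6%. The 6 were Fhl1 (1.28), Nbr1 (0.87), Actn2 (0.86), Sqstm1 (0.85), Smyd2 (0.41) and Smyd1 (0.40 on the log2 scale). Smyd2 and Smyd1 lay below the all-gene median of 0.57. After median-ratio scaling the values were 0.33 for Nbr1, 0.32 for Actn2, 0.31 for Sqstm1, −0.13 for Smyd2 and −0.14 for Smyd1. Those of Sqstm1, Smyd2 and Smyd1 then had a limma adjusted p of 0.0699 or more. Fhl2, which tethers metabolic enzymes to titin, had RPKM of 660.4, 509 and 734 in Ctrl and 51.1, 60.8 and 46.9 in icKO (log2 fold change −3.57). Tcap (telethonin), which caps titin at the Z-disc, had 939, 931 and 884 in Ctrl and 121, 211 and 155 in icKO (−2.54). Trim63 (MuRF1), a ubiquitin ligase bound to titin near the M-band, had 88.3, 90.3 and 75.4 in Ctrl and 33.4, 40.04 and 44.8 in icKO (−1.11). Fhl1, which binds titin's elastic region, had 31.1, 30.6 and 37.4 in Ctrl and 81.7, 103 and 60.2 in icKO (1.28), and after median-ratio scaling its value was 0.74 and it was not called. Rbm20, the splicing factor that controls titin isoforms, had a log2 fold change of −0.39. At E10.5, 17 were tested and 0 were called by limma. At an adjusted p under 0.05 (limma) without the fold limit, 4 were lower and 0 higher, against 3.45% and 0.864% of all genes. An unadjusted p under 0.05 (limma) was reached by 10. Of these, 9 had lower values in cKO and 1 a higher value, against 19.2% and 4.39% of all genes. Without cKO replicate 3 the count called lower was 1.

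**Figure D5:**
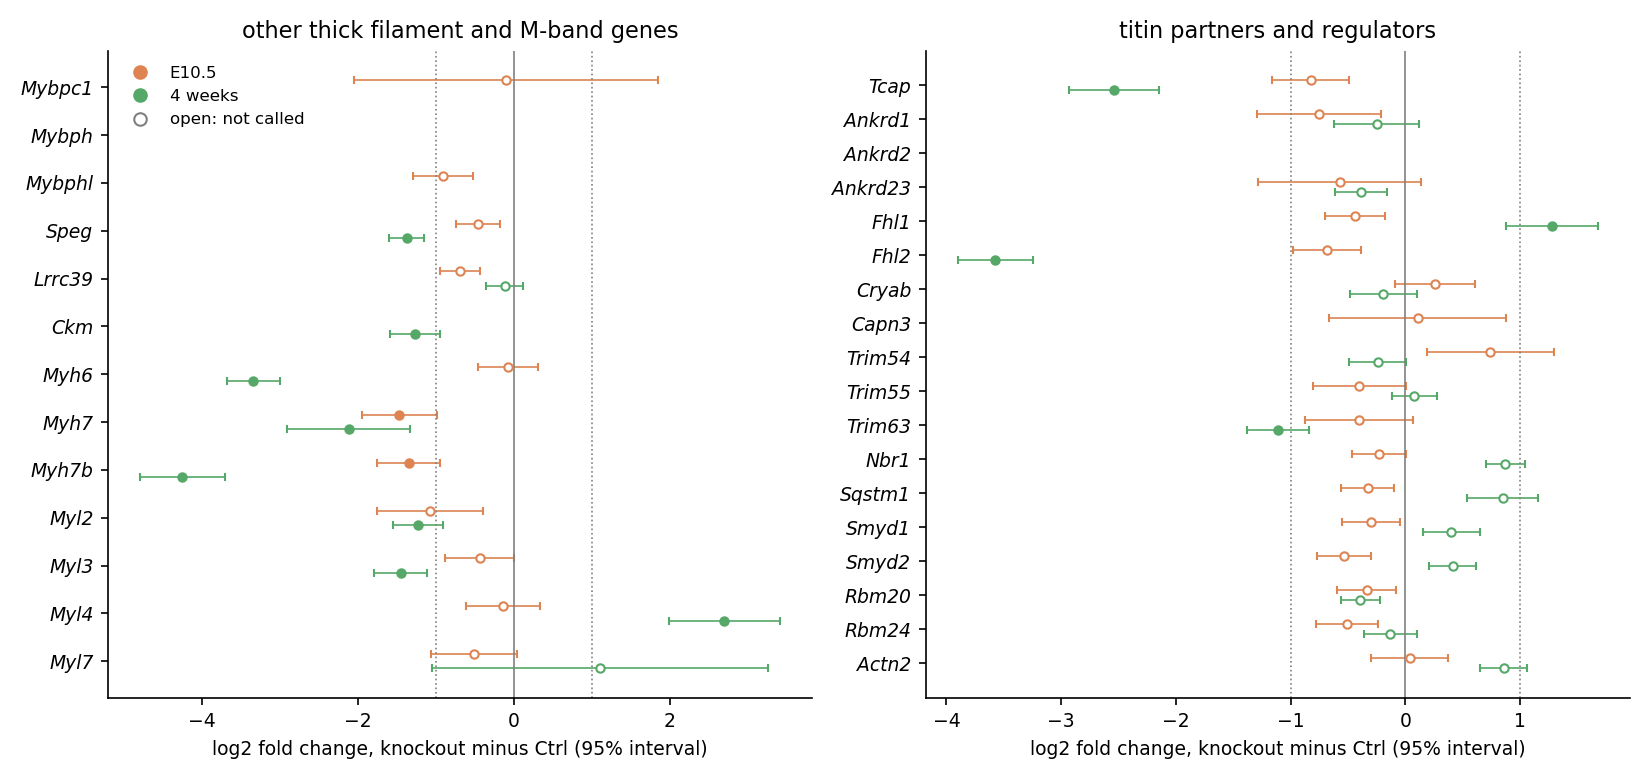
Log2 fold change (knockout minus Ctrl, x axis) with 95% intervals for the other thick filament and M-band genes (left) and titin partners and regulators (right) at both stages; filled points were called, and 1 gene of the first list is not drawn. At 4 weeks Myh7b (−4.25), Myh6 (−3.34) and Fhl2 (−3.57) lie far to the left, and Myl4 (2.70) lies to the right.

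The genes most correlated with the 2 called genes were taken from 8905 genes with a mean RPKM above 1 in both tables. The measure was Pearson's r of log2 values centred within each table over the 12 libraries, which takes no account of the size of a change. For Mybpc2 they were Nacc2 (r = 0.982), Ireb2 (r = 0.979) and Pdcd10 (r = 0.971). Their log2 fold changes at 4 weeks were 0.68, 0.49 and 1.14, against 2.498 for Mybpc2. For Myom2 they were Ppp2r3d (r = 0.947), D2hgdh (r = 0.924) and Nudt6 (r = 0.920). Here the log2 fold changes were −1.39, −1.26 and −2.01, against −2.86 for Myom2. These are descriptions over libraries that share the knockout contrast. The E10.5 libraries held few reads of Mybpc2 and Myom2, which did not pass the filter there, so counting error enters r.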

How the data were processed

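RNA-seq libraries of 12 samples (3 per group) were made by the authors from total RNA with ribosomal RNA depletion. The submitters' processing notes name cutadapt 2.6, STAR 2.5.3a, HOMER 4.11.1 and DESeq2 1.12.4, and the mm10 build. The authors deposited 1 table per stage, with RPKM per gene and library. The gene annotation, transcript lengths and use of strand are not given in the sources used here, and overlapping antisense genes cannot be told apart from RPKM. The 6 columns of group means, fold changes and FDR in the tables were not used. An RPKM keeps depth only through its low values: reads per library were estimated from their spacing, and 66.1% to 72.4% of low values fell within 0.1 of an integer number of reads (20% by chance). Floors of 3 reads cover counting error only, whereas limma intervals reflect the spread between libraries.

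Within each table, genes averaging more than 1 RPKM across its 6 libraries were fitted on log2(RPKM + 0.1) with limma 3.58.1 (R 4.3.3; lmFit, eBayes with trend), with Benjamini-Hochberg adjustment across the fitted genes. Fold changes are on the log2(RPKM + 0.1) scale, which understates changes of low genes. The difference between stages was a contrast over all 12 libraries, reported for genes past the filter at both stages (a restriction chosen after seeing the data). The fits recovered 90.5% of 200 genes simulated with a log2 change of 2 in either direction at each stage, and 87.5% for the difference. False calls numbered 6 at E10.5, 2 at 4 weeks and 9 for the difference. Smaller changes were not simulated, so these rates do not give the recovery of changes such as that of Ttn. Within-library ratios were compared with exact two-sided permutation tests (scipy 1.17.1).

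The alternatives were pseudocounts of 1 and 0.01, low-value filters at a mean of 5, at 1 RPKM in 3 or more libraries, or absent, 3 rescalings (median-ratio, quantile, and to the total of genes outside the 20 most abundant), a flat eBayes prior, a replicate-number block, and the omission of single libraries. The 7 genes and all lists were chosen with earlier results of these data known. Named beyond them were Med30, list genes called at either stage (values for the largest 3 per direction) and, for each of the 7 genes called at either stage, the 3 most correlated genes. The values of 1 list gene are not reported here, although the list counts include it. Lrrc39, Rbm20, Actn2, Nkx2-5, Myl7, Nbr1, Sqstm1, Smyd1, Smyd2 and neighbours of the 7 genes were named after their values were seen. MEF2 and SRF sites were searched on both strands of the 250 bases before each RefSeq start.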

Additional observations from a re-analysis of the deposited data

Results flagged for a closer look

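The effect of the knockout differed between the stages by a test of the difference itself (limma contrast over 12 libraries, Benjamini-Hochberg over all genes) for Ttn and Obsl1, of the 4 genes that passed the filter at both stages. The difference, 4 weeks minus E10.5 on the log2 scale, was −0.74 for Ttn and −0.70 for Obsl1. Of the 8909 genes that passed at both stages 68.1% differed, with a median of 0.69. Groups of 3 libraries were not tested for outlying samples.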

How the results depend on the processing

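The deposited RPKM were used as given. At 4 weeks the median gene moved from 0.57 to 0.04 on the log2 scale under median-ratio scaling, where the split of all calls went from 23.2% lower to 57.2% lower. Of the 7 genes, 1 was called lower at 4 weeks, and this count was 3 under median-ratio scaling, 2 under quantile normalization, 2 under scaling without the 20 most abundant genes and 1 to 2 with a replicate left out. The added gene was Obsl1 in each case (without Ctrl replicate 1 or icKO replicate 3 among the omissions), and also Ttn under median-ratio scaling. The count called higher was 1 under every alternative. At E10.5, 0 of the 7 were called under every alternative. With a replicate left out at E10.5, the log2 fold change of Mybpc3 ranged from −0.067 to 0.14 and that of Myom1 from −0.068 to 0.088, so that both changed sign. Of the other thick filament and M-band genes, 2 were lower at E10.5, 0 without the filter on low values and 0 to 3 with a replicate left out, and 1 was higher at 4 weeks, 1 to 2 with a replicate left out. Of titin's partners, 0 to 1 were lower at E10.5 with a replicate left out, and the 1 higher at 4 weeks became 0 under median-ratio scaling. The cause of these shifts was not tested. The knockout effect differed between stages for 2 of the 4 genes past the filter at both stages, for 4 under median-ratio scaling and under scaling without the 20 most abundant genes, 3 under quantile normalization and 2 to 3 with a replicate left out. The changes in the 6 ratios moved by less than the pooled within-group SD with pseudocounts of 1 and 0.01 and with a replicate left out. The block cannot alter a difference of group means, so it was no check of the ratios. With a replicate left out, the Myom2 to Myom1 change ranged from −2.98 to −2.27 at 4 weeks and from −0.44 to 0.59 at E10.5. Rescalings and filters were not applied to the ratios.

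Replicate numbers were shared between groups. Same-numbered libraries correlated at −0.070 to 0.101 at E10.5 and 0.043 to 0.153 at 4 weeks. Differently numbered ones correlated at −0.177 to 0.130 and −0.129 to 0.081. Whether same-numbered libraries shared a litter or a batch is not stated, and these few pairs cannot decide it. With the replicate number as a block, 1 of the 7 genes was lower and 1 higher at 4 weeks, 0 were called at E10.5, the Ttn value at 4 weeks had an adjusted p of 0.00103, and 2 of the 4 differed between stages. The depth of 11.97 to 20.01 M reads limits Myom3, and Mybpc2 and Myom2 at E10.5.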
